A study of Mus musculus with 2 samples.

Results

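The genes described are the 10 Lhx and Isl genes of the LIM homeobox family, Lhx1, Lhx2, Lhx3, Lhx4, Lhx5, Lhx6, Lhx8, Lhx9, Isl1 and Isl2. They were taken by name, whatever their values, out of 21755 protein-coding genes on the 19 autosomes and the X chromosome. The mark measured was trimethylation of lysine 27 of histone H3 (H3K27me3), read by chromatin immunoprecipitation and sequencing (ChIP-seq). There was a single group, the mouse embryonic stem (ES) cell line E14TG2a.4. The labels give it as male, of strain 129/Ola and of an embryonic age of 3.5 days, and they name no treatment and no altered allele. It was measured in 2 biological replicates. The design therefore asks where the mark lies at these genes and how alike the replicates are.

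LIM homeodomain proteins are transcription factors that join a DNA-binding homeodomain to paired LIM zinc fingers, through which they bind cofactors such as Ldb1. They act in combinations to specify motor neurons, forebrain regions, the pituitary, the heart, the kidney and the gonad. H3K27me3 is deposited by Polycomb repressive complex 2, and in ES cells it is known for broad coverage over the promoters of silent developmental regulators.

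Each replicate had its own list of peaks, the stretches where the authors' peak caller found enrichment. Replicate 1 had 63651 peaks with a median length of 547 bp and replicate 2 had 98582 with a median of 373 bp. Each list was called on its own library. The lists covered 53.6 Mb in replicate 1 and 58.4 Mb in replicate 2. How many reads lie behind each list is not known, so a stretch with no peak may only be thinly sequenced. A bulk library cannot tell a mark on every copy of a gene from a mark in some of the cells. Of 8 ES cell markers taken as a check, Esrrb carried a peak within 1 kb in both replicates and the other 7 had no covered base within 5 kb. Of 6 fibroblast markers, which would be active in feeder cells, 4 carried the mark and Acta2 and Col3a1 did not. Peaks give no expression, so this checks the labelled cell type only in part.

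The sequences below show upstream stretches that were covered throughout, in part, or not at all. They are RefSeq promoter stretches on GRCm38.p6 (the same coordinates as mm10), printed 5′ to 3′ on the gene's strand, with bases covered by peaks in both replicates in capitals and all other bases in lower case. Stretches were cut where they ran into an annotated exon, and the choice of which to print was made with the coverage known. RefSeq promoters were found for 9 of the 10 genes, 13 in all, and Lhx5 had no entry. The Lhx1 stretch, chr11:84525536-84525784 on the minus strand, was covered over all 249 bases. The Lhx2 stretch, chr2:38339031-38339280 on the plus strand, was covered over its first 112 of 250 bases and not over the CpG-rich part next to the gene. Lhx3 has an outer start with the stretch chr2:26208290-26208499 and an inner start with chr2:26206576-26206825, both on the minus strand. None of the outer 210 bases and 168 of the inner 250 were covered. None of the 249 bases of the Isl1 stretch, chr13:116309690-116309938 on the minus strand, were covered in both replicates, and 16 were covered in replicate 1 only.
Lhx1: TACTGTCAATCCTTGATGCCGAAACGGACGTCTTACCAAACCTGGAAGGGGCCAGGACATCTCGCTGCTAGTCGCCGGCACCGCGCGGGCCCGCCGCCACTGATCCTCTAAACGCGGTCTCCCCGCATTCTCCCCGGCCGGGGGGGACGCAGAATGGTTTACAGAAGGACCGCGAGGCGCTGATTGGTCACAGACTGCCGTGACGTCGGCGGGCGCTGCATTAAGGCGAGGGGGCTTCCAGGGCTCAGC
Lhx2: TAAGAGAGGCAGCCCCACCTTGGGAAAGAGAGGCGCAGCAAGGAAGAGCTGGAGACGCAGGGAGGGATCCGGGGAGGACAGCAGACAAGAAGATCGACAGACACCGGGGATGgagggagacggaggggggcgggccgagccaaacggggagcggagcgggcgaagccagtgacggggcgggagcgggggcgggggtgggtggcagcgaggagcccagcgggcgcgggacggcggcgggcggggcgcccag
Lhx3 outer start: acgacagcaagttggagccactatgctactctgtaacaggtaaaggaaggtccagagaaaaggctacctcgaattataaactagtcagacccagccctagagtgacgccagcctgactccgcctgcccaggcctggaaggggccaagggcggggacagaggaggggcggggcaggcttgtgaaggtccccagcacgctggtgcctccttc
Lhx3 inner start: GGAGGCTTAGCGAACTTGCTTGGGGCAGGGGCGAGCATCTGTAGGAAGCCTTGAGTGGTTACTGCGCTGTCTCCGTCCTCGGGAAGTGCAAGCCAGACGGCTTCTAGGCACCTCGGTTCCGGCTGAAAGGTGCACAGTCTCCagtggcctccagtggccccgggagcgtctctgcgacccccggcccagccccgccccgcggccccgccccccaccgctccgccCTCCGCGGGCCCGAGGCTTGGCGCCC
Isl1: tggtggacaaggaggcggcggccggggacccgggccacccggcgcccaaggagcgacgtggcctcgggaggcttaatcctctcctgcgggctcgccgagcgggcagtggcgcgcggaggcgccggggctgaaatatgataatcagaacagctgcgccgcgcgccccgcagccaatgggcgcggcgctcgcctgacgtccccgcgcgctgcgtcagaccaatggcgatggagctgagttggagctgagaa
The uncovered stretches differ in composition. The Isl1 stretch holds 33 CpG dinucleotides and the Lhx3 outer stretch 7, while the fully covered Lhx1 stretch holds 26. The Lhx2 stretch holds 25 CpG and the Lhx3 inner stretch 22.

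All 10 genes carried H3K27me3 at their 5' ends, and most were blanketed from upstream of the start through much of the gene. Each of the 10 had a peak within 1 kb of the annotated 5' end in both replicates, where 26.1% of all protein-coding genes had one, and within 5 kb, where 33.9% had one. At least 50% of the wider window, 10001 bp, was covered in both replicates at 9 of the 10, all but Lhx3, against 7.34% of all genes. Median coverage of this window over the 10 genes was 8531 bp in replicate 1 and 8173 bp in the other. The median over all protein-coding genes was 0 bp in each replicate. Genes with a peak within 1 kb in both replicates, called marked genes from here on, had medians of 3639 and 3580 bp. As a share of the window the median of the 10 genes was 83.6% ± 2.53 (SD, n = 2 replicates).

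Coverage ran into the gene bodies as well. The median covered share of the body was 81.8% in replicate 1 and 79.9% in replicate 2 for the 10 genes, a mean of 80.9% ± 1.31 (SD, n = 2 replicates). It was 10.7% and 11.4% for marked genes. At least 50% of the body was covered in both replicates in 8 of the 10, all but Lhx4 and Lhx8, against 4.94% of all genes. The median gene length was 17400.5 bp for the 10 genes, 17414 bp for all genes and 25922 bp for marked genes.

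**Figure D1:**
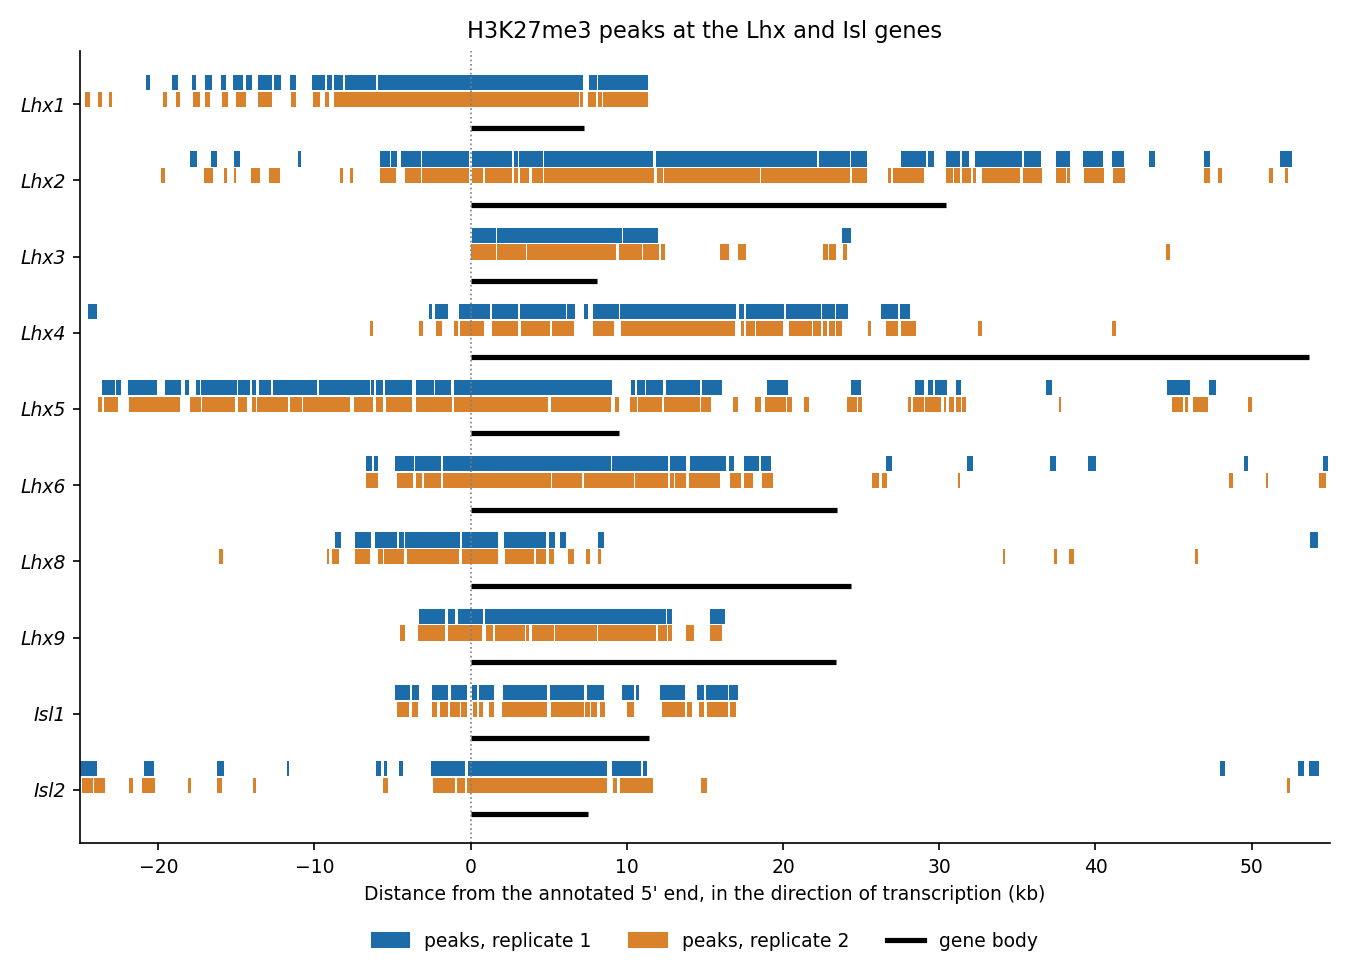
Peaks of replicate 1 (blue) and replicate 2 (orange) at each gene, placed by distance in kb from the annotated 5' end in the direction of transcription, with the gene body as a black bar. Lhx3 is covered from the start inward only, and all the others have peaks on both sides of the start. Within the body, peaks at Lhx4 and Lhx8 lie mainly over its first part.

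Lhx1 and Lhx5 are close relatives: Lhx1 is needed for head formation and for the kidney, and Lhx5 for forebrain development. Lhx1 (chr11:84518284-84525535, minus strand) had every base of the 10001 bp window covered in both replicates. A single peak spanned its start in each replicate, 13119 bp long in replicate 1 and 15665 bp long in replicate 2. Lhx5 (chr5:120431699-120441223, plus strand) had 9500 bp covered in replicate 1 and 9594 bp in replicate 2. Both genes had their whole 2001 bp around the start covered in each replicate, as did Lhx6, which makes 3 of 10 beside 1.39% of all genes.

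The mark at these relatives reached far upstream. Joining bases covered in both replicates across breaks of up to 3 kb gave a domain of 30.3 kb at Lhx1 (chr11:84514175-84544430), of which 18.9 kb lay upstream of the gene. At Lhx5 the domain was 38.8 kb (chr5:120408237-120447065), with 23.5 kb upstream. These upstream parts were longer than those of the other 8 genes, which ranged up to 8.7 kb at Lhx8. The Lhx1 domain also holds the start of the long noncoding RNA Lhx1os. The extent of the Lhx5 domain depended on how pieces were joined and on the list, and ranged between 26.6 and 112.0 kb over the alternatives. It was 92.5 kb from replicate 2 alone and 43.9 kb from replicate 1 alone.

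Lhx3 and Lhx4 direct pituitary development and motor neuron identity, and they carried the mark in unlike ways. Lhx3 (chr2:26200212-26208289, minus strand) had a sharp boundary at its 5' end. In the 5 kb upstream no base was covered in either replicate. In the 5 kb downstream, coverage was 4852 bp in replicate 1 and 4839 bp in replicate 2. The body was covered over 98.2% and 98.0%. The nearest covered base lay 67 bp inside the start in replicate 1 and 41 bp in replicate 2. Lhx3 was the only one of the 10 genes with nothing covered upstream, and the other 9 had at least 1786 bp in replicate 1 and 1500 bp in replicate 2. Its domain, chr2:26196271-26208222, was 12.0 kb and the most alike between replicates within its bounds. There 96.6% of the bases covered in either replicate were covered in both.

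Lhx4 (chr1:155698031-155751684, minus strand) is the longest of the 10 at 53654 bp, and the mark lay over its first part. Peaks covered 44.8% of the body in replicate 1 and 41.3% in replicate 2, and 6544 and 5751 bp of the window around the annotated 5' end. Signal was lowest there of all 10 genes, at 4.3 in replicate 1 and 5.6 in replicate 2. The signal is a value that the authors' peak caller gave to each peak, on a scale the sources do not state, and it serves here only to rank and describe peaks. An inner coding start of Lhx4, 9.7 kb into the gene, had 8933 and 8164 bp of its own window covered. Its highest signal was 12.9 in replicate 1 and 13.2 in replicate 2. The Lhx4 domain was 30.3 kb (chr1:155723553-155753888) and holds both starts, but joined across breaks of at most 1 kb the piece at the outer start was 7.3 kb. The single RefSeq promoter of Lhx4 belongs to that inner start. Of its 250 bases upstream, 173 were covered in replicate 1 but only 5 in replicate 2.

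Lhx2 and Lhx9 are another related pair: Lhx2 is needed for eye formation and the cerebral cortex, and Lhx9 for the gonad. Lhx2 (chr2:38339281-38369733, plus strand) held the highest signal of the 10 genes, 19.2 in replicate 1 and 19.7 in replicate 2. In each replicate it came from a peak of 6988 bp centred 8.2 kb into the gene. Within 1 kb of the 5' end the signal was 11.6 in replicate 1 and 15 in replicate 2. The domain, chr2:38333489-38381097, was 47.6 kb and ranked 42 among all 16987 domains. It was longer than the Lhx5 domain here, with a −log10 q of at least 2, from replicate 1 alone and joined within 1 kb. It was shorter with the relaxed lists, at 66.2 kb beside 105 kb, and from replicate 2 alone, at 50.3 kb beside 92.5 kb. The same held with both replicated lists, with the pseudoreplicated list of both libraries together and when joined within 5 kb. The Lhx2 domain covered the gene and ran 11.4 kb past its 3' end. Over the alternatives its length was between 31.2 and 78.9 kb. It holds the starts of the antisense RNA genes Gm13584 and Gm27197. Lhx9 (chr1:138825186-138848577, minus strand) had a covered length of 7872 bp in the window in replicate 1 and of 7889 bp in replicate 2. Its domain was 19.4 kb (chr1:138832500-138851907) and ended 7.3 kb before the gene's 3' end. Around an inner coding start, 6.1 kb into Lhx9, 10001 bp were covered in replicate 1 and 9520 bp in replicate 2.

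Lhx6 and Lhx8 act in the ventral forebrain, Lhx6 in cortical interneurons and Lhx8 in cholinergic neurons. Lhx6 (chr2:36081953-36105408, minus strand) was covered over 9597 bp of the window in replicate 1 and over 9308 bp in replicate 2, and over 75.7% and 73.6% of its body. Its domain was 25.9 kb, chr2:36086207-36112081. Lhx8 (chr3:154306294-154330659, minus strand) had nearly as much of the window covered, 9190 and 8842 bp. Its body was the least covered of the 10, at 22.9% in replicate 1 and 22.1% in replicate 2. The Lhx8 domain, 17.1 kb at chr3:154322294-154339363, began 8.7 kb upstream and stopped 16.0 kb before the 3' end. It was the only gene of the 10 with more bases covered upstream than downstream in both replicates, 4746 and 4640 bp upstream beside 4443 and 4201 bp downstream.

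Isl1 is needed for motor neurons, the second heart field and pancreatic islets, and Isl2 for motor neuron subtypes. Isl1 (chr13:116298281-116309689, minus strand) was covered over 7695 bp of the window in replicate 1, against 6780 bp in replicate 2. Within 1 kb coverage was 1610 bp in replicate 1 and 1195 bp in replicate 2. Its domain, chr13:116292704-116314376, was 21.7 kb and held the lowest share of bases covered in both replicates of the 10, 63.0%. Joined across breaks of at most 1 kb it was 13.2 kb. Isl2 (chr9:55538672-55546180, plus strand) was covered over its whole body in both replicates. Its domain spanned 16.8 kb (chr9:55533133-55549935), of which 13616 bp were covered in replicate 1 and 13100 bp in replicate 2. Its signal within 1 kb was 8.5 in replicate 1 and 12.4 in replicate 2, a difference wider than its relative's 9.0 and 6.1 and in the other direction. The Isl2 domain overlaps the body of Scaper, the only other protein-coding gene whose body any of the 10 domains reach.

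**Figure D2:**
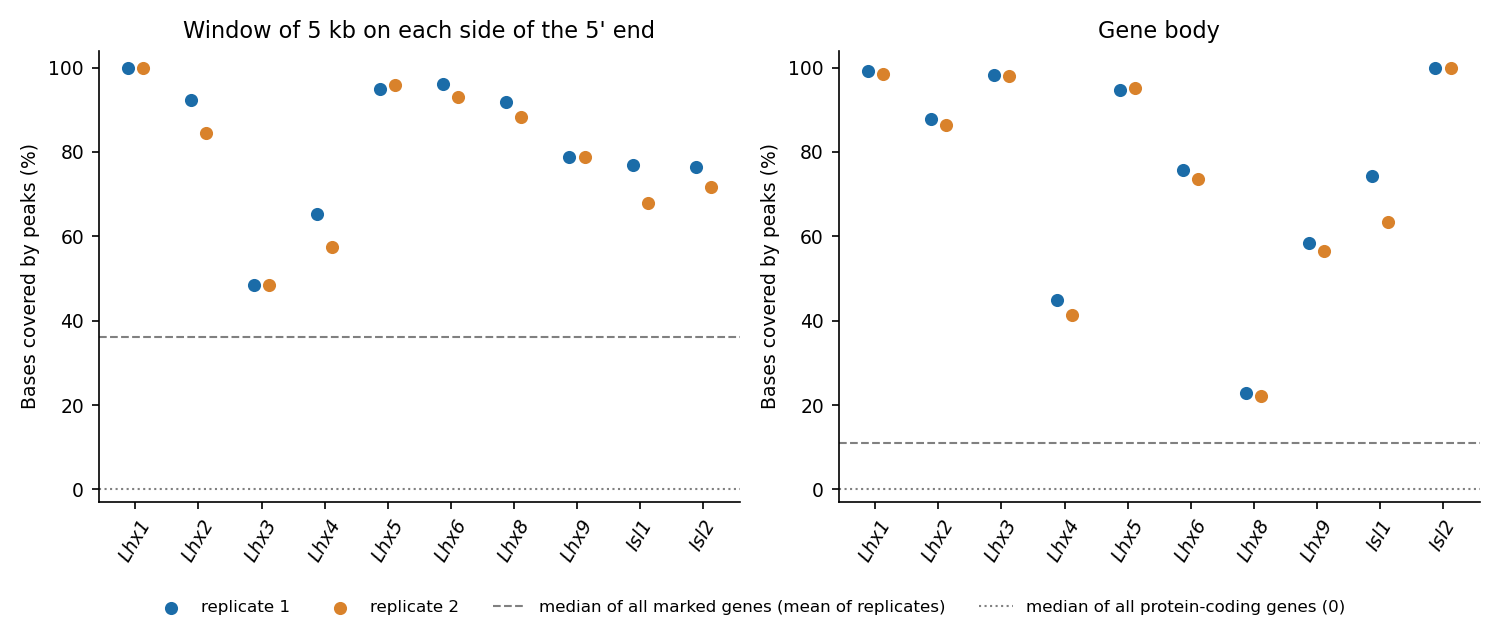
Share of bases covered by peaks (%) in the 10001 bp around the 5' end (left) and in the gene body (right), 1 point per replicate, with medians of marked genes (dashed) and of all protein-coding genes (dotted). Every point lies above both medians, and Lhx8 stands high on the left at 91.9% and 88.4% but low on the right at 22.9% and 22.1%.

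Within 1 kb of the 5' ends most of the 10 genes had a strong peak, counting any peak that reached into this window. The median of the highest signal within 1 kb was 13.3 in replicate 1 and 13.4 in replicate 2 for the 10 genes, and 7.7 and 7.6 for marked genes. The 99th percentile of all peaks was 13.43 in replicate 1 and 12.72 in replicate 2. Lhx1, Lhx3, Lhx5, Lhx8 and Lhx9 were above it in replicate 1, and Lhx1, Lhx2, Lhx5, Lhx6 and Lhx8 in replicate 2. Lhx1, Lhx5 and Lhx8 were thus above it in each replicate. The Lhx9 value in replicate 1 came from a peak that began 927 bp into the gene. The peak over the Lhx9 start had 11.19. The Lhx2 value in replicate 2 came from a peak that began 928 bp into the gene, and the peaks on each side of the start had 11.73 and 8.68. Lhx4 in replicate 1 was below the median of all peaks, 4.66, at 4.3.

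**Figure D3:**
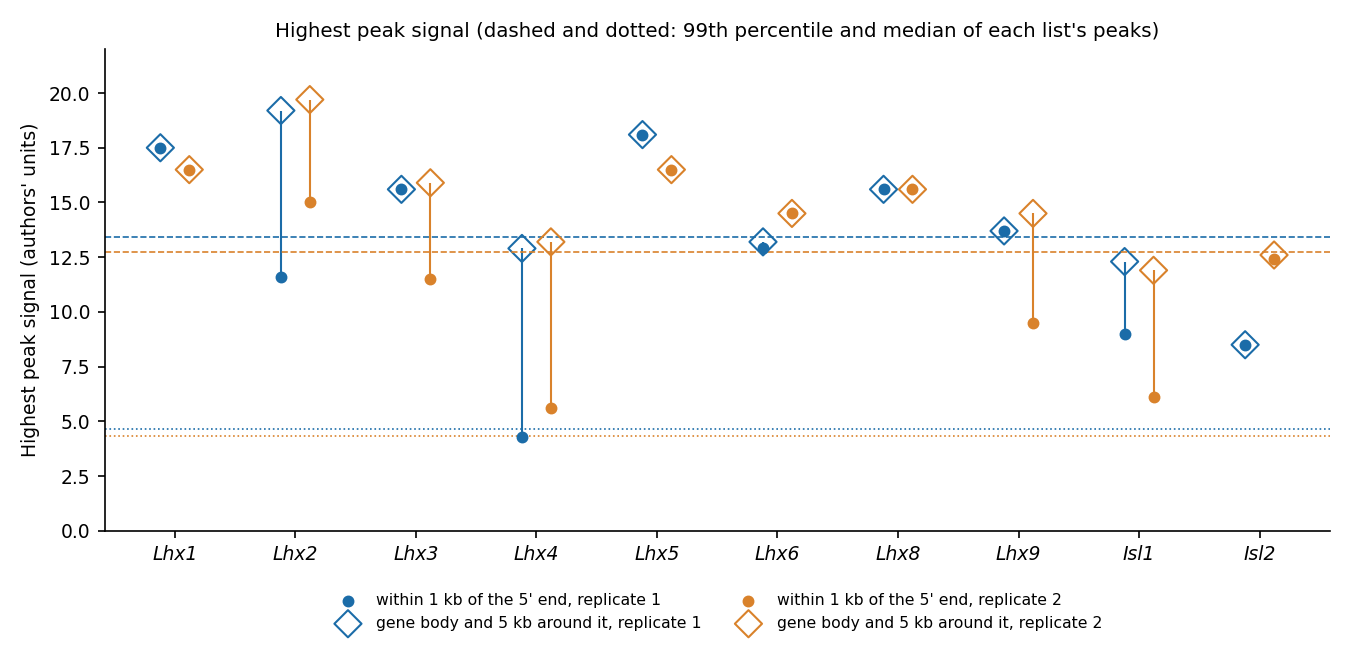
Highest peak signal in the authors' units within 1 kb of the 5' end (filled circles) and over the gene body with 5 kb around it (open diamonds), per replicate, with the 99th percentile (dashed) and median (dotted) of all peaks of each list. Lhx2, Lhx4 and Isl1 have their highest signal away from the annotated start in both replicates, where Lhx4 reaches 12.9 and 13.2 beside 4.3 and 5.6 at the start.

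The first base of the gene was itself covered in both replicates in 7 of the 10 genes, where 9.59% of all genes and 36.7% of marked genes had it covered. The other 3, Lhx2, Lhx3 and Isl1, had it covered in neither replicate, as did 48.9% of marked genes. At Lhx2 the nearest covered base lay 58 bp away in replicate 1 and 77 bp in replicate 2. At Isl1 these distances were 74 and 117 bp. Marked genes as a whole showed a local dip: 36.7% were covered in both replicates at the first base, 35.6% at 50 bp upstream and 68.3% at 900 bp downstream. The 10 genes were at 70% at the first base, 90% at 500 bp upstream and 60% at 900 bp downstream. Of the 10 genes all were covered in both replicates between 150 and 350 bp downstream. More bases were covered in the 5 kb downstream than in the 5 kb upstream, in both replicates, in 8 of the 10 genes, a share that was 62.6% among marked genes. Lhx8 went the other way, as 26.3% of marked genes did, and Lhx1 was fully covered on both sides.

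**Figure D4:**
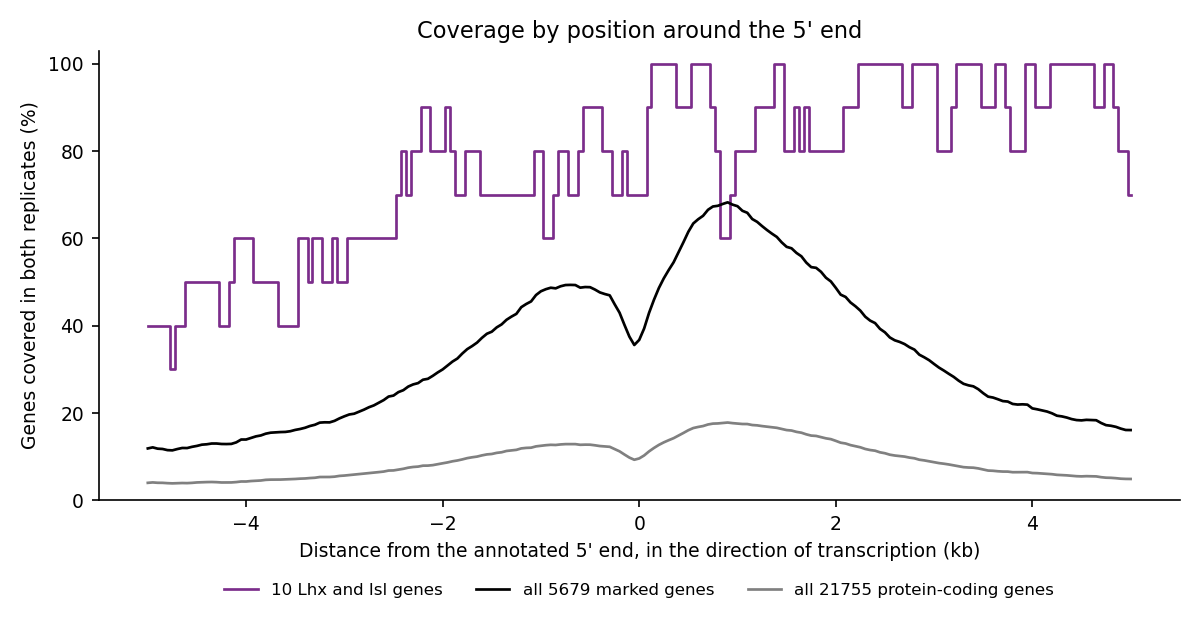
Share of genes covered in both replicates (%) at each position within 5 kb of the annotated 5' end, in the direction of transcription, for the 10 genes (purple steps), marked genes (black) and all protein-coding genes (grey). The 10 genes stay between 60% and 100% over the 5 kb downstream. Marked genes reach 68.3% at 900 bp and fall from there. At 850 and 900 bp the 10 genes are at 60%, below the 67.9% and 68.3% of marked genes. Each step of 10% is 1 gene.

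All of the genes but Lhx5 have several annotated transcripts, and every start had the mark nearby. The annotation gives 46 distinct transcript starts, each of which had a peak within 1 kb in both replicates. Of all protein-coding genes, 29.6% had a peak in each replicate within 1 kb of 1 or more of their transcript starts. That is a share of genes, and the share over all transcript starts was not taken. Of the 46 starts the start base was covered in both replicates at 38, in neither at 7 and in a single replicate at 1. Among the 29 distinct starts of coding transcripts the counts were 24 and 5, with none covered in a single replicate. The lowest coverage within 1 kb of a coding start was 934 bp in replicate 1 and 960 bp in replicate 2, at the outer start of Lhx3. The starts of 1 gene share sequence and peaks and are not independent.

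At Lhx4, Isl2 and Lhx3 the annotated 5' end was poor in CpG. The observed to expected CpG ratio within 500 bp was 0.09 at Lhx4, 0.14 at Isl2 and 0.29 at Lhx3, and lay between 0.53 and 0.84 at the other 7 genes. The medians of this ratio were 0.63 for the 10 genes, 0.56 for all genes and 0.63 for marked genes. The ratio was taken at the outermost annotated base and depends on the start used. In the 250 bases upstream of an inner RefSeq start, GC content was 66% at Lhx4, 66.8% at Isl2 and 70.8% at Lhx3. Those stretches held 14, 16 and 22 CpG. Repeats made up less of the 10 kb around the 5' ends, with medians of 13.75% for the 10 genes, 24.6% for all genes and 19.7% for marked genes. Among the 10 genes Lhx3 had both the lowest repeat content, 10.1%, and the lowest coverage. Lhx4 had the highest repeat content, 26%, and the next lowest coverage, and Lhx1, at 10.7%, was covered throughout. The part of repeats in the coverage was not tested. In the 300 bases around RefSeq starts, the homeodomain core TAATTA (both strands, a palindrome) was in 0 of 13 promoters of the 10 genes and in 5.3% of 32851 promoters. A TATAAA box was in 2 of 13 and 13.6%, CCAAT in 6 of 13 and 37.4%, and GGGCGG in 7 of 13 and 35.7%, each searched on both strands. A missing match says only that these letters are not in this window.

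Long domains held 9 of the 10 starts. A domain of at least 10 kb contained the 5' end of all but Lhx3, against 5.21% of all genes and 19.9% of marked genes. The Lhx3 domain also passed 10 kb but began 0.1 kb inside the gene. The 10 domains had a median length of 23.8 kb and 259.9 kb in all, and Lhx2 and Lhx5 were among the 100 longest. None held the start of another protein-coding gene. Within the bounds of a domain, the share of bases covered in either replicate that were covered in both was high. Its median was 89.7% over the 10 domains and 81.6% over all 1367 domains of at least 10 kb. Each of the 10 was above that second median, with Lhx8 the lowest at 83.2%. Domains were built from bases covered in both replicates, so a high share is partly built in. Bases covered in a single replicate beyond the edges of a domain are not counted.

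Breaks in the domains were mostly short. Replicate 2 had more separate peaks than replicate 1 in 7 of the 10 domains. Its whole list also had more, 98582 beside 63651, and the share over other long domains was not taken. Within the 10 domains 100 stretches of at least 20 bp were covered in neither replicate, with a median length of 153.5 bp and 33694 bp in all. They had a GC content of 41.9% and a repeat content of 33.6%, while the 200610 bp covered in both replicates had 51.0% and 12.2%. In the other long domains, 12668 such stretches had 46.1% GC and 33.6% repeats. The breaks were thus richer in repeats and poorer in GC than the covered bases, in the 10 domains as in the others. Repeats can lose reads that fit several places, and their part in the breaks was not tested.

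A few breaks were instead rich in CpG. Of the 100, 7 had at least 8 CpG per 100 bp, or 7%, and in the other long domains 728 did, or 5.75%. This limit, and the 500 bp used next, were set after the values were seen. An annotated transcript start lay within 500 bp of 5 of the 7, and of 9 of the other 93. The shares were 71.4% and 9.68% in the 10 domains, and 70.6% and 8.83% in the other long domains, so the 10 domains were close to the other long domains in this. The break of 177 bp over the Lhx2 start, chr2:38339162-38339338, had 84.2% GC, and that of 307 bp over the Isl1 start, chr13:116309616-116309922, had 69.7%. At Lhx8 a break of 388 bp lay over an inner coding start (chr3:154328523-154328910). The Lhx3 domain had a single break, 61 bp with 86.9% GC next to the inner start (chr2:26206607-26206667), which lies among the lower-case bases of the printed inner stretch. Very GC-rich sequence can also be lost in library preparation, and its part in these breaks was not tested.

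**Figure D5:**
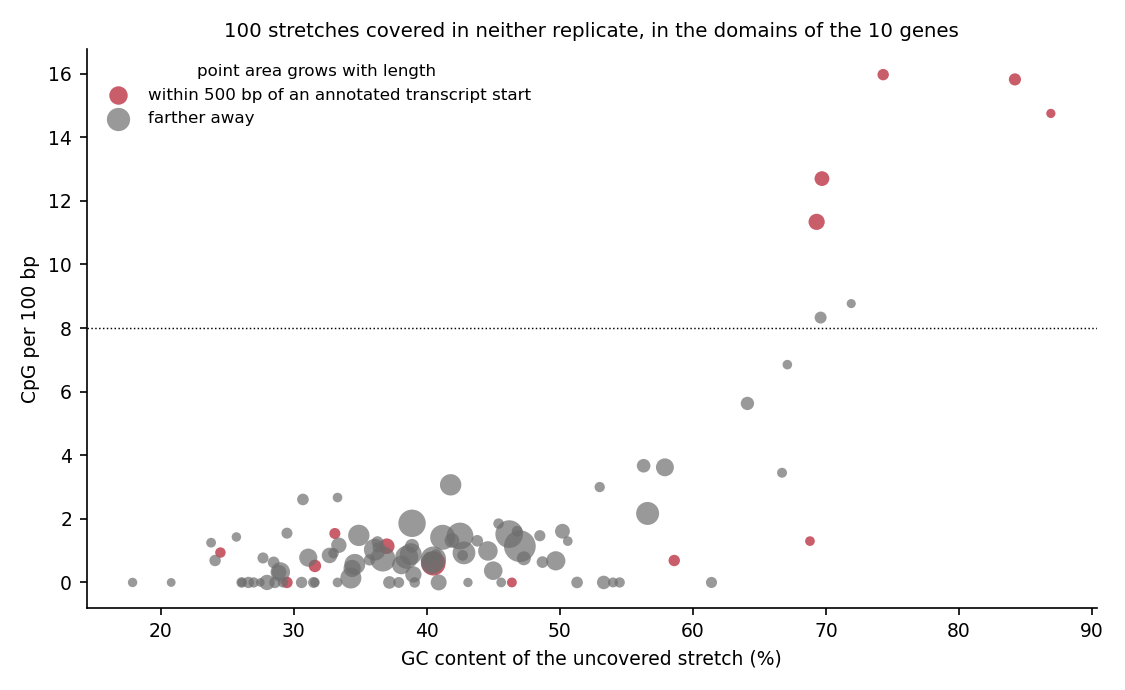
Each point is a stretch of at least 20 bp covered in neither replicate within the domains of the 10 genes, by GC content (%) and CpG per 100 bp, with area growing with length and red for those within 500 bp of a transcript start. Of 7 points above the dotted line at 8 CpG per 100 bp, 5 are red.

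Exons and introns were covered to unlike degrees in several genes. The share of exonic bases covered in both replicates was 97% at Lhx1 and 97.8% at Lhx3, and their introns had 100% and 97.2%. At Lhx9 it was 23.2% for exons beside 75.1% for introns, and at Lhx4 9.5% beside 42.6%. Lhx8 had the reverse order, with 33.8% of exonic and 17.6% of intronic bases covered. The domains of Lhx9, Lhx4 and Lhx8 all ended before the 3' end of the gene, 25.5 kb before it at Lhx4.

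The shape of coverage over 20 kb on each side of the start was compared between genes by the share of covered bases held in common. Over the 45 pairs of the 10 genes it ranged between 24.4% for Lhx4 with Lhx8 and 72.0% for Lhx2 with Lhx6, with a median of 49.3%. The genes most like each one elsewhere included other developmental regulators. Lhx2 and Lhx6 were both most like Dlx1, a forebrain homeobox gene, at 79.9% and 82.8%. Lhx1 was most like Nkx2-3 at 72.3%, Lhx9 like Sox14 at 75.7% and Isl1 like Wnt5a at 64.7%. Lhx3 was most like Islr2 at 76.3%, tied with its neighbour Islr, Lhx4 like Ddn at 81.0% and Isl2 like Coro6 at 76.0%. Lhx5 was most like Gm28308 at 81.5%, tied with Hoxa3, and Lhx8 like Dnajc22 at 70.0%. These are the highest of 21755 values each, from the same 2 libraries, and carry no test.

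A list of other LIM homeobox genes, LIM-only genes and genes for cofactors and their partners was counted in groups of at most 4 genes. Of its 12 genes, 4 were marked within 1 kb, or 33.3%, beside 26.1% of all genes. These were 2 of 2 other LIM homeobox genes and 2 of 4 LIM-only genes. Of the cofactor genes 0 of 2 were marked, of the genes for their partners 0 of 3, and of the ubiquitin ligase genes 0 of 1. The marked ones were the related homeobox genes Lmx1a and Lmx1b and the LIM-only genes Lmo1 and Lmo4. Coverage of the window was 8285 bp at Lmx1a in replicate 1 and 8154 bp in replicate 2, and 9434 and 9359 bp at Lmx1b. Lmo1 had 8006 and 8002 bp and Lmo4 4209 and 3392 bp. The cofactor genes Ldb1 and Ldb2 had 0 bp covered within 5 kb in both replicates. Lmo2, Lmo3, Rlim and Ssbp2 were among the other genes with no call within 1 kb.

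Genes known to work with these factors or downstream of them in the embryo were mostly marked. Of 43 such genes 35 were marked within 1 kb, or 81.4%, beside 26.1% of all genes. Medians of 7313 and 7216 bp were covered within 5 kb, beside 0 bp for all genes in each replicate. A domain of at least 10 kb held the start of 30, beside 5.21% of all genes. The list was chosen with earlier results of these data known. All 6 of the eye and forebrain list were marked, as were all 4 of the ventral forebrain, islet and gonad lists and all 5 of the kidney list. The motor neuron and interneuron list had 8 of 9, with Neurod4 missing, and the heart list 4 of 5, with Mef2c missing. The pituitary list had 2 of 8, or 25%, close to the share of all genes. The most covered were Olig2, with 9794 bp in replicate 1 and 9862 bp in replicate 2, and Pitx1 with 9797 and 9731 bp. Six3 had 9881 and 9706 bp, and Pax2 9867 and 9720 bp. Olig2 specifies motor neuron progenitors, Pitx1 the pituitary and hindlimb, Six3 the forebrain and eye, and Pax2 the kidney.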

How the data were processed

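H3K27me3 ChIP-seq peaks of 2 biological replicates of E14TG2a.4 cells were read as deposited. Per the file headers, 8 lists are on build mm10, from 2 processing runs. The aligner, the caller and their settings are unnamed there (not given in the sources used here), and control libraries were not analysed here. Each replicate was read from its own pseudoreplicated list. Each peak has a signal value, set by the authors on an unstated scale, and a deposited −log10 of p and q. A list on another build, mm9, was left out. Depth is unknown, so precision is shown only by the spread of both replicates.

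Intervals were laid over GENCODE mouse release 21 (GRCm38), with an overlap of at least 1 bp, and the 5' end is the outermost annotated base of a gene. A single group allows no test. Coverage counts and domain building were checked on simulated intervals. All 10 genes were named whatever their values. Of each further gene list, up to 6 members without a call, in alphabetical order, and up to 4 marked ones with the most covered bases were named, and for each of the 10 genes the gene most like it. A few genes that this rule takes are not reported here. The genes and lists were chosen with earlier results of these data known. Alternatives were other peak lists, a −log10 q of at least 2, each replicate left out, smaller windows, 50% of the window covered, any transcript start and other joining distances. Scripts ran on Python 3.11.15, with Matplotlib 3.10.9 for the figures and pandas 2.3.3 and NumPy 2.4.6 for the counts.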

Additional observations from a re-analysis of the deposited data

How the results depend on the processing

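The number of the 10 genes with a call in both replicates was 10 within 1 kb and 10 within 5 kb under every alternative tried except coverage of at least 50% of the window, which gave 9 for each and left out Lhx3. The number with the start in a domain of at least 10 kb was 9 throughout, except 8 where pieces were joined within 1 kb. The share of all genes with such a start was 5.21% as reported, 2.79% joined within 1 kb, 9.34% with the relaxed lists, and 11.8% and 10.7% with the replicated lists of the first and second run. The share of all genes called within 1 kb was 14% with that coverage and between 21.4% and 34.2% otherwise. The median covered share of the 10001 bp window was 86.7% with the relaxed lists, 90.9% with the first run's replicated list, and 91.2% with the second run's and with the pseudoreplicated list of both libraries together (leaving out a replicate gave 81.7% to 85.3%). For gene bodies these values were 84.0%, 87.1%, 86.1% and 86.1%, and 80.0% to 81.8% without a replicate. The median signal was 13.7 with the relaxed lists, 14.6 when taken within 5 kb, and 13.3 to 13.4 without a replicate. The cause of these shifts was not tested. No paired analysis was possible because the replicates form a single group with nothing to pair. The unknown depth, the unstated scaling of the signal and the lack of a second condition limit what the lists show: boundaries of peaks, short breaks and the exact length of a domain are set by the caller as well as by the cells.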
